A study of Mus musculus with 4 samples.

Results

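The acyl-CoA synthetases of long, short and medium chains were examined in brown adipose tissue (BAT) as a family of 10 genes, chosen by symbol: Acsl1, Acsl3, Acsl4, Acsl5 and Acsl6 for long-chain fatty acids, Acss1, Acss2 and Acss3 for acetate and propionate, and Acsm3 and Acsm5 for medium-chain acids. All 10 were among the 55387 rows deposited for each library, and 9 of them were among the 12877 rows tested. The exception was Acsl6, whose averaged level did not reach 1 in either genotype.

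RNA sequencing was done on BAT of 4 male C57BL/6 mice aged 15 weeks, with 1 library per mouse. The 2 control mice were Sox4f/f littermates, labelled WT, with floxed Sox4 alleles. The other 2 mice were Sox4-MKO, in which the same floxed alleles are combined with Myf5-Cre. This Cre is driven by the Myf5 gene and is active in the precursors shared by brown adipocytes and skeletal muscle, so muscle is recombined as well, and cells of other lineages in the depot keep Sox4. Values were in FPKM, fragments scaled to the length of the transcript and to the depth of the library, so that levels of different genes can be compared with each other. Gene positions are those of GENCODE M21 on GRCm38.

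The depth, estimated from the lowest values, was about 12200000 to 16600000 fragments per library. Sox4, the targeted gene, had 1.98 and 1.06 FPKM in Sox4f/f mice 1 and 2, and the libraries labelled Sox4-MKO had 0.98 and 3.06. The genotypes overlapped, with a log2 fold change of 0.20 and a 95% interval from -0.95 to 1.34. A lower level of Sox4 mRNA under that label was thus neither shown nor excluded, and all directions follow the labels. Brown adipocyte markers were present in all 4 libraries, with a summed level of 8260 to 8466 FPKM over 8 genes in Sox4f/f and 4343 to 4961 FPKM under the Sox4-MKO label. The 12 skeletal muscle markers summed to 246 and 903 FPKM in Sox4f/f mice 1 and 2 and to 16913 and 3250 FPKM in Sox4-MKO mice 1 and 2 as labelled, which is 0.0426%, 0.166%, 3.42% and 0.688% of the summed FPKM of each library. The 9 macrophage markers summed to 195 to 287 FPKM in Sox4f/f and 398 to 410 FPKM under the other label, and the 7 fibroblast and progenitor markers to 228 to 264 and 495 to 534 FPKM. At an unadjusted p under 0.05, 10 of the muscle, 7 of the macrophage and 7 of the fibroblast markers were higher and 6 of the brown ones were lower. Summed endothelial, lymphocyte, nerve and erythroid markers and the 8 general adipocyte markers (10945 to 14062 FPKM) overlapped between the genotypes. By the same rule 2 of the general adipocyte and 1 of the 6 endothelial markers were lower, and 0 of either list were higher. None of the brown, muscle, macrophage or fibroblast markers was at 0 in any library. The part of these cell types in the results on the synthetases was not tested, apart from the values given below, and in bulk tissue fewer cells of a type and less RNA per cell cannot be told apart.

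Fatty acids are chemically inert until they are joined to coenzyme A in a reaction that uses ATP. The enzymes that do this differ in the chain length they prefer and in where they sit in the cell, so that the same acid can be sent to oxidation in mitochondria, to triglycerides and phospholipids, or to protein acetylation. Brown adipocytes rely on this step because fatty acids are both the fuel of thermogenesis and the activators of uncoupling protein 1.

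The levels of the members spanned a wide range. Acsl1 was the most abundant, at 486 to 698 FPKM, and its mean over the libraries was above that of 99.2% of the tested rows. Acss2, Acsm3 and Acss1 followed with means of 155, 60.0 and 56.6 FPKM over the 4 libraries, of which Acss2 was above Acsm3, and Acsm3 above Acss1, in 3 of 4 libraries each, so these neighbours were not separated in every mouse. Acsl5 and Acss3 had 27.1 and 26.4 FPKM, Acsl3 and Acsl4 had 9.83 and 8.60 FPKM, and both pairs also kept their order in 3 of 4 libraries. Acsm5 averaged 2.89 FPKM and Acsl6 0.425 FPKM. The next lower gene was below its neighbour in 4 of 4 libraries at the other steps of this order.

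**Figure D1:**
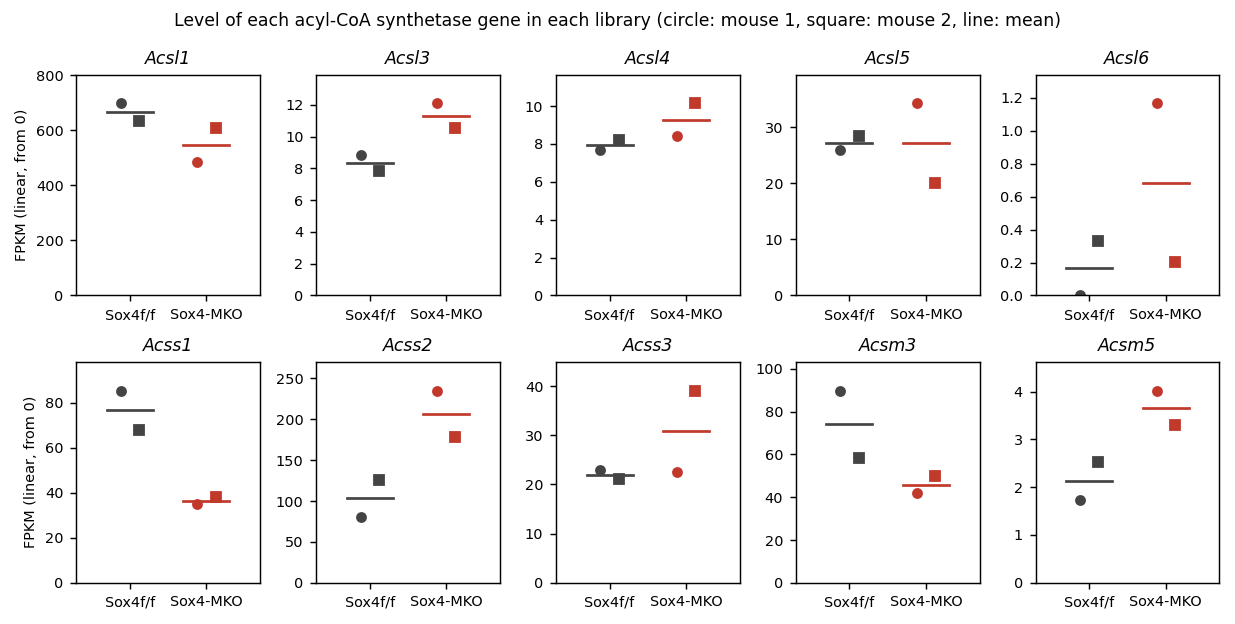
FPKM of the 10 acyl-CoA synthetase genes, on linear axes from 0, in 2 Sox4f/f mice (grey) and in the 2 libraries labelled Sox4-MKO (red), with the group means as lines. Acss1, Acsl1 and Acsm3 lie lower without overlap in the libraries labelled Sox4-MKO, Acss2, Acsl3, Acsl4 and Acsm5 lie higher without overlap, and Acsl5, Acss3 and Acsl6 overlap.

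The question was which of these enzymes differed in mRNA level between BAT of Sox4-MKO mice and of their littermates. At an unadjusted p under 0.05 by limma, 2 members, Acss1 and Acsm3, lay lower under the Sox4-MKO label and 1 lay higher, Acss2, while the other 6 tested members did not pass. Of all tested rows, 8.28% were lower and 7.95% were higher by the same rule, 16.2% in all, so the 3 calls among 9 members stand against that background. No member passed after Benjamini-Hochberg adjustment, with adjusted p-values by limma from 0.196 to 0.948, and over all 12877 rows 0% did, although 2090 had an unadjusted p under 0.05. Of these 2090, 51% were lower, and the share among the rows called moved both ways with the processing. It was 36% of 2067 after equalizing library sums without Ucp1 and the mitochondrially encoded genes. After scaling to general adipocyte markers it was 22.7% of 1263. It was 54.4% with library medians made equal, 54.7% with quantile normalization, 59.0% with a filter of 5 FPKM and 62.8% without moderation of the spread. With a replicate block, the other filters and the other pseudocounts it was 47.4% to 50.3%. The genotypes did not overlap at 7 of the 9 tested members, 3 lower and 4 higher, while 51.3% of all tested rows did so, 29.6% lower and 21.7% higher. The median log2 fold change of the 9 was 0.20 and that of all tested rows -0.05, with 4 members below 0 and 5 above it. With Sox4-MKO mouse 2 left out the median of the members was 0.07, and with mouse 1 of that label left out it was 0.30. For a single gene or ratio the exact permutation test, two-sided, cannot go below 0.333 with 2 mice in each genotype.

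**Figure D2:**
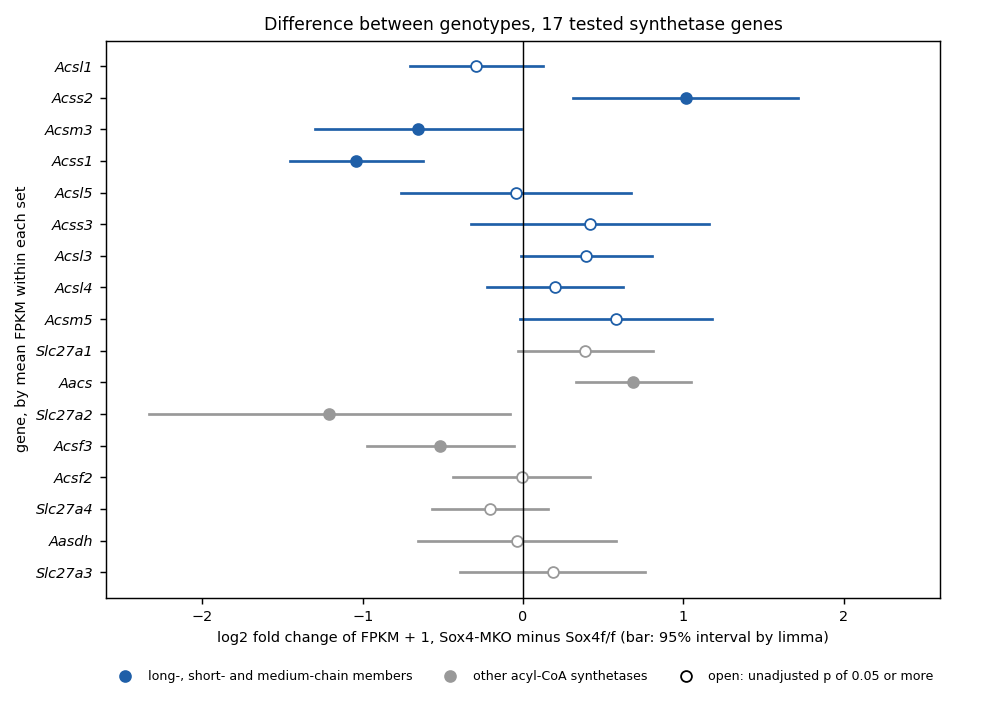
Log2 fold change of FPKM + 1 (libraries labelled Sox4-MKO minus Sox4f/f) for the 9 tested members (blue) and the 8 tested genes of the wider synthetase family (grey), with 95% intervals from limma; filled points have an unadjusted p under 0.05. Acss1 at -1.04 and Acss2 at 1.01 are the 2 members farthest from 0, in opposite directions.

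The largest differences within the family were in the enzymes that activate acetate. Acss1 encodes the acetyl-CoA synthetase of the mitochondrial matrix, where acetyl-CoA enters the TCA cycle (chr2:150618105-150668500, minus strand). Acss1 had 85.4 and 67.9 FPKM in Sox4f/f mice 1 and 2, and the libraries labelled Sox4-MKO had 35.0 and 38.1. Both of the latter were well below both Sox4f/f libraries, and the means were 76.6 ± 12.4 and 36.6 ± 2.13 FPKM (SD, n = 2 each). The log2 fold change was -1.04 with a standard error of 0.16 (adjusted p = 0.196 by limma). It was the only member whose call was kept under all 15 alternatives tried, with log2 fold changes from -1.20 to -0.88. Without Sox4-MKO mouse 1, the library with the most muscle RNA, it was -0.98. The mouse of that label left in also had more muscle RNA than both Sox4f/f mice (0.688% against 0.0426% and 0.166%). Scaled to 8 general adipocyte markers, 2 of them lower themselves, it was -0.96, and this alternative was chosen after seeing the data. The part of muscle or of adipocyte content in the difference was not tested.

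Acss2 encodes the acetyl-CoA synthetase of the cytosol and nucleus, which supplies acetyl-CoA for fatty acid and sterol synthesis and for histone acetylation (chr2:155517948-155585724, plus strand). Acss2 had 80.8 and 125.8 FPKM in Sox4f/f mice 1 and 2, and the libraries labelled Sox4-MKO had 235 and 178. The lowest of the latter was above the highest Sox4f/f library, and the means were 103 ± 31.8 and 207 ± 40.3 FPKM (SD, n = 2 each), a ratio of 2.00. The log2 fold change was 1.01 with a standard error of 0.27 (adjusted p = 0.229 by limma). Leaving out Sox4f/f mouse 1 gave 0.70 and leaving out Sox4-MKO mouse 1 gave 0.81, and neither passed an unadjusted p of 0.05, nor did the difference without moderation of the spread. Acss2 was among the lipogenesis genes that the study displayed from these same libraries, so its direction is not independent evidence.

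Acss2 was also set against Acss1 within each library, which leaves out the scaling of that library. The ratio of Acss2 to Acss1 was 0.947 and 1.85 in Sox4f/f mice 1 and 2 and 6.71 and 4.68 in the libraries labelled Sox4-MKO. On the log2 scale the ratio was 0.41 ± 0.69 and 2.49 ± 0.37 (SD, n = 2 each), a difference of 2.08, with an exact permutation p of 0.333, the smallest this design can give. This difference stayed between 1.60 and 2.56 with each library left out in turn. Since Acss2 was displayed by the study for its direction, part of this difference was known beforehand.

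Acss3 encodes a mitochondrial enzyme that prefers propionate (chr10:106933517-107123668, minus strand). Acss3 had 22.9 and 21.1 FPKM in Sox4f/f mice 1 and 2, and the libraries labelled Sox4-MKO had 22.5 and 39.1. Only Sox4-MKO mouse 2 was high and mouse 1 lay within the Sox4f/f values, so the genotypes overlapped. The log2 fold change was 0.42 with a 95% interval from -0.32 to 1.16 (adjusted p = 0.5002 by limma), and leaving out Sox4-MKO mouse 2 or mouse 1 gave 0.03 or 0.80, the latter with an unadjusted p under 0.05 by limma.

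As a share of the summed FPKM of the 3 Acss genes, Acss1 made up 45.2% and 31.6% in Sox4f/f mice 1 and 2 and 12.0% and 14.9% in the libraries labelled Sox4-MKO. This was a mean difference of -24.9 percentage points (exact permutation p = 0.333), between -31.7 and -18.1 with each library left out in turn. Acss2 held 42.8% and 58.6% of that sum in Sox4f/f and 80.3% and 69.8% under the other label. Acss3 held 12.1%, 9.84%, 7.69% and 15.3% in the same order of libraries, without separation of the genotypes.

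**Figure D3:**
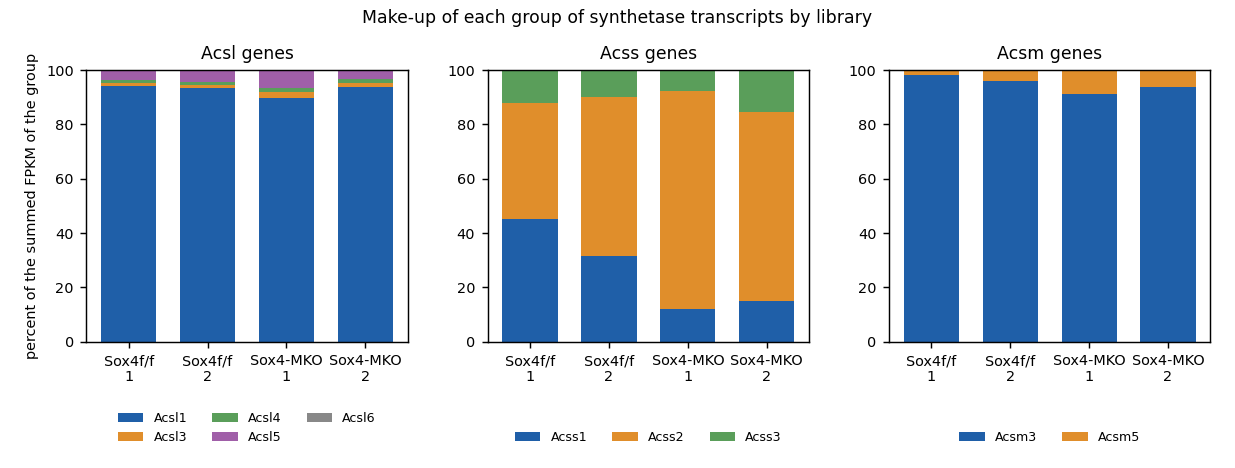
Stacked bars give the percent of the summed FPKM that each gene holds within the Acsl, Acss and Acsm groups, one bar per library. The Acss bars differ most between the genotypes, with Acss1 at 45.2% and 31.6% in Sox4f/f and at 12.0% and 14.9% in the libraries labelled Sox4-MKO, while Acsl1 holds 89.7% to 94.3% of the Acsl sum in all 4.

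The bases before the start sites of the 3 members that passed an unadjusted p of 0.05 are shown because these members differed in both directions. They were read from RefSeq for GRCm38.p6, the build the processing notes name as mm10, and are printed 5′ to 3′ on the strand of the gene without any base that GENCODE M21 places in an exon. Of the 10 members, 9 had an entry. Capitals mark matches, on either strand, to any of 8 motifs searched in the 250 bases before each start. Acss2 is shown at chr2:155517793-155517947 (plus strand), Acss1 at chr2:150668259-150668337 (minus strand) and Acsm3 at chr7:119760673-119760922 (plus strand).
Acss2: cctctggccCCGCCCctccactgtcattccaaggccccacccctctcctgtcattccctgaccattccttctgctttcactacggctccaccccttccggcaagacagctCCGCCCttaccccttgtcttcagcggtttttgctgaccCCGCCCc
Acss1: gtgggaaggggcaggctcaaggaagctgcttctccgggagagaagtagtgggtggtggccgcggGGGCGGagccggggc
Acsm3: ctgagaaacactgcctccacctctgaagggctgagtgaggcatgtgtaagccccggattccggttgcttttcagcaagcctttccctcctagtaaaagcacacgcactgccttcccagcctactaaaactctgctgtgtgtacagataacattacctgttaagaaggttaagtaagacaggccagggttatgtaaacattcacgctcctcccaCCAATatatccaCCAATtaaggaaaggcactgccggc

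The capitals in Acss2 are 3 GC boxes, GGGCGG read on the other strand, which start 241, 140 and 102 bases before the RefSeq start, and that in Acss1 is a GC box at 33 bases. A further GC box of Acss2 at 37 bases lay outside the printed stretch, and one of Acss1 at 22 bases runs past its end and is left in lower case. This motif was found in 32.7% of all 32851 promoter windows. Acsm3 had no GC box and held a pair of CCAAT motifs at 37 and 25 bases, a motif found in 33.8% of the windows and, in the other orientation, also in Acss2 at 73 bases, outside the stretch printed. The SREBP site TCACNCCAC, present in 1.05% of the windows, matched none of these 3 genes and matched 1 of the 2 windows of Acsl1, at 76 bases on the other strand. The PPAR direct repeat (0.0335% of the windows) and the EBF palindrome (0.779%) matched no member. The ERR element TCAAGGTCA (0.387%) and the SOX motif ACAAAG (16.5%) matched Acsl6 among the members, and the E-box CACGTG (6.02%) matched Acsm5.

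Acsl1 encodes the main long-chain synthetase of adipocytes, which in brown fat directs fatty acids to mitochondrial oxidation. It lies at chr8:46471037-46536051 on the plus strand. Acsl1 had 698 and 635 FPKM in Sox4f/f mice 1 and 2, and the libraries labelled Sox4-MKO had 486 and 608. The latter were both lower, but Sox4-MKO mouse 2 was closer to Sox4f/f mouse 2 than to the other mouse of its own genotype. The log2 fold change was -0.29 with a 95% interval from -0.71 to 0.13 (adjusted p = 0.426 by limma), so no difference was called, and a difference of up to 0.71 in that direction was not excluded by the interval. It was -0.45 without Sox4-MKO mouse 2, with an unadjusted p under 0.05 by limma, -0.13 without Sox4-MKO mouse 1 and -0.09 after quantile normalization.

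Acsl5 encodes a long-chain synthetase of the mitochondrial outer membrane and endoplasmic reticulum (chr19:55251938-55297720, plus strand). Acsl5 had 25.9 and 28.3 FPKM in Sox4f/f mice 1 and 2, and the libraries labelled Sox4-MKO had 34.2 and 20.1. The latter lay on either side of the Sox4f/f values, with nearly equal means of 27.1 ± 1.72 and 27.2 ± 9.98 FPKM (SD, n = 2 each). For the log2 fold change of -0.04 the 95% interval ran from -0.76 to 0.67, wide enough to hold a sizeable difference either way, and its sign turned with the library left out. The ratio of Acsl1 to Acsl5 was 26.9 and 22.4 in Sox4f/f and 14.2 and 30.2 in the libraries labelled Sox4-MKO. On the log2 scale the ratio of Acsl5 to Acsl1 differed by 0.24 (exact permutation p = 1), and by -0.30 without Sox4-MKO mouse 1.

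Acsl3 encodes an enzyme of the endoplasmic reticulum and of lipid droplets that takes part in droplet growth (chr1:78657825-78707743, plus strand). Acsl3 had 8.87 and 7.85 FPKM in Sox4f/f mice 1 and 2, and the libraries labelled Sox4-MKO had 12.1 and 10.5. Both of the latter were above both Sox4f/f libraries, and the log2 fold change was 0.39 with a 95% interval from -0.01 to 0.80 (adjusted p = 0.318 by limma). An unadjusted p under 0.05 was reached after scaling to a common median (0.37), after quantile normalization (0.39) and after rescaling without the mitochondrially encoded genes and Ucp1 (0.46).

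Acsl4 encodes the enzyme that prefers arachidonic acid and feeds polyunsaturated phospholipids (chrX:142317993-142390535, minus strand). Acsl4 had 7.66 and 8.20 FPKM in Sox4f/f mice 1 and 2, and the libraries labelled Sox4-MKO had 8.40 and 10.1. The genotypes were separated by a small step between Sox4f/f mouse 2 and Sox4-MKO mouse 1, with a log2 fold change of 0.20 and a 95% interval from -0.23 to 0.62 (adjusted p = 0.569 by limma). Leaving out Sox4-MKO mouse 2 gave 0.07 and leaving out Sox4-MKO mouse 1 gave 0.32.

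Acsl6 (chr11:54303798-54364756, plus strand), known from brain and skeletal muscle, was listed at 0 and at 0.330 FPKM in Sox4f/f mice 1 and 2 and at 1.17 and 0.202 FPKM under the Sox4-MKO label. These values rest on an estimated 0, 23, 89 and 19 fragments over its longest coding transcript. Only Sox4-MKO mouse 1, which also had the most muscle RNA, was above 1 FPKM, and the part of muscle in this value was not tested. With a filter of 0.1 FPKM, the log2 fold change of Acsl6 was 0.48 with a standard error of 0.34 (adjusted p = 0.583 by limma).

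Most of the long-chain transcripts were from Acsl1. It made up 94.3% and 93.4% of the summed Acsl FPKM in Sox4f/f mice 1 and 2 and 89.7% and 93.7% in the libraries labelled Sox4-MKO. Sox4-MKO mouse 2 lay between the Sox4f/f libraries, and the mean difference of -2.15 percentage points (exact permutation p = 0.667) was -0.16 without Sox4-MKO mouse 1. The summed Acsl FPKM was 740 and 680 in Sox4f/f and 542 and 649 in the libraries labelled Sox4-MKO.

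Acsm3 encodes a medium-chain synthetase of the mitochondrial matrix (chr7:119760923-119787513, plus strand). Acsm3 had 89.9 and 58.5 FPKM in Sox4f/f mice 1 and 2, and the libraries labelled Sox4-MKO had 41.8 and 49.9. Both of the latter were lower, although Sox4f/f mouse 2 was nearer to Sox4-MKO mouse 2 than to the other Sox4f/f mouse. The means were 74.2 ± 22.2 and 45.8 ± 5.79 FPKM (SD, n = 2 each), with a log2 fold change of -0.66 and a standard error of 0.24 (adjusted p = 0.2998 by limma). The unadjusted p passed 0.05 by little and was lost under 9 of the 15 alternatives. The log2 fold change was -0.35 when Sox4f/f mouse 1 was left out, and leaving out Sox4-MKO mouse 1 or 2 gave -0.53 or -0.78, and none of these passed an unadjusted p of 0.05.

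Acsm5 encodes another mitochondrial medium-chain synthetase, of low level here (chr7:119519463-119545551, plus strand). Acsm5 had 1.74 and 2.52 FPKM in Sox4f/f mice 1 and 2, and the libraries labelled Sox4-MKO had 4.02 and 3.29. An estimated 71 to 163 fragments lay behind these values. The latter were both higher, and the log2 fold change of 0.58 had a 95% interval from -0.02 to 1.17 (adjusted p = 0.315 by limma). Since 1 was added to FPKM before the logarithm, this understates the difference of a gene at this level, and with 0.01 in its place it was 0.79. Of the summed FPKM of this pair, Acsm5 made up 1.90% and 4.13% in Sox4f/f and 8.78% and 6.18% in the libraries labelled Sox4-MKO.

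**Figure D4:**
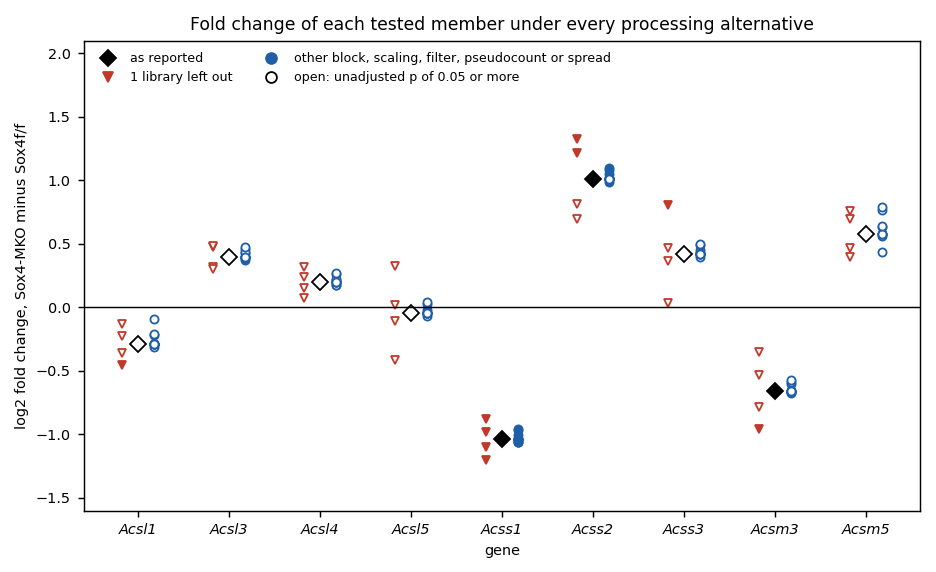
Log2 fold change (libraries labelled Sox4-MKO minus Sox4f/f) of the 9 tested members as reported (diamonds), with 1 library left out (triangles) and under the other alternatives (circles); filled symbols have an unadjusted p under 0.05 by limma. Acss1 is filled throughout, from -1.20 to -0.88, whereas Acss2 and Acsm3 lose the call when some libraries are left out and Acsl5 lies on both sides of 0.

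Of 16 further acyl-CoA synthetase genes, 8 were tested. The other 8 were below the filter, and of these Acsm2, Acsm4, Acsbg2 and Acsbg3 were listed at 0 in all 4 libraries. Of the tested ones, 2 were lower and 1 was higher at an unadjusted p under 0.05, with a median log2 fold change of -0.02. Aacs, which activates acetoacetate in the cytosol for lipid synthesis, was higher, with 68.0 and 66.0 FPKM in the Sox4f/f mice and 118.6 and 99.3 under the other label, a log2 fold change of 0.69 (adjusted p = 0.205 by limma). Acsf3, the mitochondrial malonyl-CoA synthetase, was lower, with 37.8 and 47.0 FPKM in the Sox4f/f mice and 32.1 and 26.6 under the other label and a log2 fold change of -0.52 (adjusted p = 0.271 by limma). Slc27a2, a very-long-chain synthetase that also takes up fatty acids and that the study displayed from these libraries, had 124.8 and 52.4 FPKM in the Sox4f/f mice and 37.1 and 32.0 under the other label, a log2 fold change of -1.21 (adjusted p = 0.286 by limma). Slc27a1, the most abundant of this list, had 145.9 and 113.6 FPKM in the Sox4f/f mice and 174.5 and 163.4 under the other label, a log2 fold change of 0.39 (adjusted p = 0.330 by limma).

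The genes that handle acyl-CoA are given by list, with no test between lists. Of 14 genes for mitochondrial entry and beta-oxidation, all tested, 10 were lower and 0 higher at an unadjusted p under 0.05, with a median log2 fold change of -0.56. Among them Cpt1b, the carnitine palmitoyltransferase of brown fat and muscle, which the study also displayed, had 321 and 347 FPKM in the Sox4f/f mice, and the libraries labelled Sox4-MKO had 187 and 181, a log2 fold change of -0.86 (adjusted p = 0.191 by limma). Of 12 acyl-CoA thioesterases, which split the product of the synthetases again, 9 were tested. By sign alone 8 of these lay below 0, with a median log2 fold change of -0.35. By the same rule 1 was lower, Acot13, with a log2 fold change of -0.51 (adjusted p = 0.240 by limma), and 0 were higher. Of 14 glycerolipid synthesis genes, 13 were tested, 2 were lower and 0 higher, with a median of 0.04. Of 6 acyl-CoA binding proteins, 5 were tested and 1 was higher, Acbd4, with a log2 fold change of 0.58 (adjusted p = 0.239 by limma), while Dbi, the main one, had 1561 and 1965 FPKM in the Sox4f/f mice and 2349 and 2019 under the other label (adjusted p = 0.438 by limma).

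Of 11 genes from acetyl-CoA to fatty acids, the path that Acss2 feeds, 4 were higher and 0 lower at an unadjusted p under 0.05. The median log2 fold change was 0.83, or 0.84 without Fasn and Scd1. Fasn and Scd1 had 652 and 4491 FPKM in Sox4f/f mouse 1 and were listed at 0 in every other library. Whether these zeros are missing values rather than absent mRNA was not tested, so neither gene is read here. The study displayed lipogenesis genes from these libraries, so this count is not independent evidence. Acly, the other cytosolic source of acetyl-CoA, had 168 and 517 FPKM in Sox4f/f mice 1 and 2, and the libraries labelled Sox4-MKO had 642 and 591, a log2 fold change of 1.06 (adjusted p = 0.402 by limma). Like Acss2, Acly was lower in Sox4f/f mouse 1 than in mouse 2. Slc25a1, the citrate carrier that feeds Acly, had 215 and 294 FPKM in the Sox4f/f mice and 585 and 490 under the other label, a log2 fold change of 1.09 (adjusted p = 0.196 by limma).

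Of 11 transcription factors and coactivators known to act on these genes, 5 were lower and 1 higher at an unadjusted p under 0.05. By sign alone 10 lay below 0 and 1 above, with a median log2 fold change of -0.32. The higher one was Srebf1, a regulator of lipogenic genes, with 88.7 and 111.3 FPKM in the Sox4f/f mice, and the libraries labelled Sox4-MKO had 144.8 and 131.3, a log2 fold change of 0.47 (adjusted p = 0.269 by limma). Mlxipl, more abundant than Srebf1 on average, had 149.9 and 166.2 FPKM in the Sox4f/f mice and 136.6 and 150.1 under the other label, a log2 fold change of -0.14. Ppara, a regulator of fatty acid oxidation genes that the study displayed as well, had 114.6 and 130.2 FPKM in the Sox4f/f mice and 57.7 and 66.4 under the other label, a log2 fold change of -0.97 (adjusted p = 0.196 by limma). Of the deacetylases that activate the acetyl-CoA synthetases, Sirt3, which acts on ACSS1 in mitochondria, had 65.1 and 64.2 FPKM in the Sox4f/f mice and 46.8 and 35.9 under the other label, a log2 fold change of -0.64 (adjusted p = 0.224 by limma). Sirt1, which acts on ACSS2, had 7.93 and 6.69 FPKM in the Sox4f/f mice and 4.86 and 6.34 under the other label (adjusted p = 0.445 by limma). In all of these lists 0 genes passed 0.05 after adjustment, and the brown, muscle, macrophage and fibroblast markers differed with the genotype as given above.

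**Figure D5:**
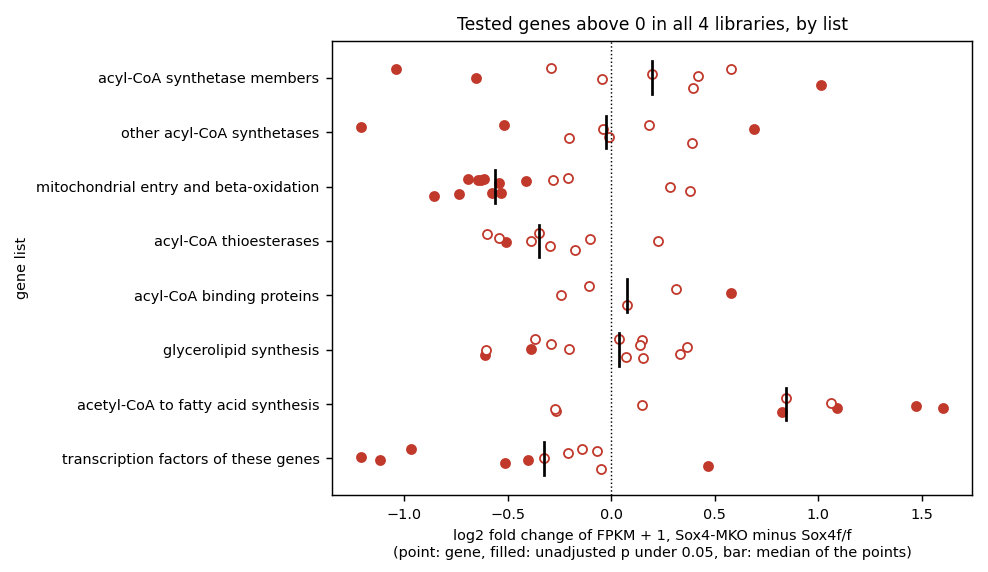
Log2 fold change (libraries labelled Sox4-MKO minus Sox4f/f) of the tested genes above 0 in all 4 libraries, one point per gene and one row per list, with the median as a bar and filled points for an unadjusted p under 0.05. The beta-oxidation list has its median at -0.56 and the list from acetyl-CoA to fatty acids at 0.84, while the 9 synthetase members spread from -1.04 to 1.01 around 0.20.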

How the data were processed

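Total RNA of BAT from 4 mice was sequenced, 1 library per mouse. The authors deposited 1 FPKM value per gene symbol and library. The submitters' processing notes list Cufflinks 2.1.1, Cuffdiff and mm10, and the aligner and annotation are not given in the sources used here. The sample labels name a stranded library and a column kit, the study's methods TRIzol and TruSeq, and the use of strand in counting is not stated. The members and gene lists were chosen with earlier results of these data known. A row was tested where its mean FPKM in either genotype exceeded 1, on the scale log2(FPKM + 1) with limma 3.58.1 (R 4.3.3), genotype as the only term and a trended prior, two-sided, and a call is an unadjusted p under 0.05, the study's rule. Adjustment was over all 12877 rows. All members are named, and of other lists Sox4, Slc27a1, Slc27a2, Cpt1b, Acly, Srebf1, Ppara, Sirt1 and Sirt3 and genes among the 6 most abundant of a list. Acsm2, Acsm4, Acsbg2 and Acsbg3 fall outside this rule and were named after their values of 0 were seen. Ratios within a library were compared by an exact two-sided permutation test.

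Data were simulated for 12877 rows with independent normal noise at the moderated spread of each row, and 200 rows were changed by 1 on the log2 scale. Of the changed rows 93% passed an unadjusted p of 0.05 and 0% passed after adjustment, and 4.49% of the unchanged rows passed unadjusted. Such noise sets the share of unchanged rows near the threshold by construction and holds no correlation between genes. The share passing after adjustment also depends on how many rows are changed. That was 200 of 12877 here, while 16.2% of the real rows had an unadjusted p under 0.05 by limma. These shares are therefore not error rates or recovery rates of the real data. Library depth was read from genes that GENCODE M21 gives a single transcript, 1500 nt or longer, as the value at which their lowest FPKM times kilobases cluster. Of 8 starting values, 6 to 8 led to the same cluster in a library. Estimated fragments are approximate, cover counting error only and use the longest coding transcript. The alternatives were leaving out each library, a replicate block, 3 scalings between libraries, 3 filters, pseudocounts of 0.1 and 0.01 and limma without moderation, and a scaling to 8 general adipocyte markers chosen after seeing the data.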

Additional observations from a re-analysis of the deposited data

How the results depend on the processing

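The number of members lower in the libraries labelled Sox4-MKO was 2, and it was 1 with a replicate block, after quantile normalization, after equalizing library sums computed without Ucp1 and the mitochondrially encoded genes, with no FPKM filter, without moderation of the spread and after scaling to the general adipocyte markers. It was 1 to 2 with each library left out. Acsm3 was the member lost wherever it was 1, and without Sox4-MKO mouse 2 the 2 lower members were Acss1 and Acsl1. The number higher was 1, and it was 2 with library medians made equal, 2 with quantile normalization, 3 with those equalized sums, 0 without moderation, and 0 to 1 with each library left out. Without Sox4f/f mouse 1 the numbers were 1 lower and 0 higher, and without Sox4-MKO mouse 1 the 1 higher member was Acss3 in place of Acss2. The cause was not tested. The median log2 fold change of the tested members was between 0.07 and 0.30. Acsl5 changed sign without Sox4f/f mouse 2 (0.019), without Sox4-MKO mouse 2 (0.33, its highest value, the lowest being -0.41 without Sox4-MKO mouse 1), with those equalized sums (0.025) and when scaled to the adipocyte markers (0.039). The log2 ratio of Acsl5 to Acsl1 differed by -0.30 to 0.79 with each library left out, and was reversed without Sox4-MKO mouse 1. That of Acss2 to Acss1 differed by 1.60 to 2.56, the Acsl1 share by -4.15 to -0.16 and the Acss1 share by -31.7 to -18.1 percentage points. Sox4 had a log2 fold change of 0.20, and of -0.071 without Sox4f/f mouse 2 and -0.32 without Sox4-MKO mouse 2, its lowest value, with 0.71 as the highest.

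The mouse numbers were not used to pair the libraries. The deviations of the 2 mice numbered 1 had a correlation of -0.012 across genes. With only 2 possible pairs, and genes that are not independent replicates, this value cannot settle whether the mice were paired. With the replicate block, 1908 rows had an unadjusted p under 0.05 against 2090 without it, the log2 fold change of Acsm3 stayed at -0.66 and lost its call, and no call of another member changed. Scaling to the adipocyte markers left 1263 such rows, of which 22.7% were lower, against 51% of 2090, and the equalized sums gave 36% of 2067. Leaving out Sox4f/f mouse 1 left 813 and leaving out Sox4f/f mouse 2 left 1063, while leaving out Sox4-MKO mouse 1 or 2 left 1943 or 2258. No moderation left 1488, of which 62.8% were lower. After adjustment 1 row passed without Sox4f/f mouse 1 and 4 without Sox4f/f mouse 2, and 0 under the other alternatives. Low values limit Acsl6 and Acsm5 most. The p-values by limma set the difference between genotypes against the spread between 2 mice per genotype, moderated toward the trend over all tested rows. Without that moderation Acss1 kept its call, and Acss2 and Acsm3 lost theirs.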

Other observations

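Some members share exonic bases with a gene on the other strand in GENCODE M21, and since the use of strand is not stated, their fragments cannot be told apart there. Gss, which encodes glutathione synthetase and shares 395 bases with Acss2, had 18.9 and 20.01 FPKM in Sox4f/f, and the libraries labelled Sox4-MKO had 9.42 and 10.7, a log2 fold change of -0.89 with a standard error of 0.14 and an unadjusted p under 0.05 by limma, in the opposite direction to Acss2. The antisense transcript Acss2os was listed at 0 in all 4 libraries. Eri2, which shares 1962 bases with Acsm3, had 3.82 and 2.76 FPKM against 3.33 and 4.53 FPKM, far below Acsm3. Gm12224, which shares 202 bases with Acsl6, had 0.244 and 1.12 FPKM in Sox4f/f, and those labelled Sox4-MKO had 8.43 and 0.399, with its highest value in the same mouse as Acsl6. Utp14b, on the same strand as Acsl3 and sharing 244 bases with it, had 1.74 and 1.99 FPKM against 1.38 and 1.32 FPKM. Zdhhc6, on the other strand, shares 404 bases with Acsl5, which had 20.1 to 34.2 FPKM. Zdhhc6 had 16.5 and 15.1 FPKM in Sox4f/f, and the libraries labelled Sox4-MKO had 13.6 and 14.02. Ppfia2, which shares 2436 bases with Acss3, was below 1 FPKM in every library. So were Gm45244, E130215H24Rik, Ggt7 and Pdilt, which overlap Acsl1, Acss1, Acss2 and Acsm5. These genes were chosen by their overlap with the members, and Gss and Gm12224 were singled out after their values were seen.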
